A study of Mus musculus with 338 samples.

Results

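The 38 genes described here serve protein folding and stress signalling in the endoplasmic reticulum (ER), the compartment in which insulin is folded. They were taken by symbol from a table of raw RNA-seq read counts with 21382 genes, and all 38 symbols were present and passed the filter on low counts. By role, 27 are chaperone and ERAD genes (11 lumenal chaperones and co-factors, 6 disulfide and oxidative folding enzymes, 2 translocon subunits and 8 genes of ER-associated degradation, ERAD), 5 are sensors and transcription factors, and 6 are targets of the transcription factor ATF4. The libraries came from pancreatic islets of 172 mice fed a diet high in fat and sugar (HFHS) and 166 fed regular chow (RC), 1 library per mouse, after 2, 10, 30 or 90 days. The mice were of 6 inbred strains, AKR/J, A/J, BALB/cJ, DBA/2J, 129S2/SvPas and C57Bl/6J, with no engineered allele named in the labels, which gives 48 groups of 4 to 11 mice. Sex and age were not given in the sources used here. Islets are a mixture of cell types, and in such bulk samples fewer cells of a type and less RNA per cell cannot be told apart.

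Reads assigned to genes numbered 9526926 to 50751894 per library, with a median of 25989180. Islet hormone and beta cell markers summed to at least 87013 CPM (read counts scaled to the library's total) in every library, but the share of reads from the insulin genes Ins1 and Ins2 ranged over 0.24% to 43.6%. In 39 libraries the level of a gene depended on its GC content by more than 0.5 log2 units per 10 GC points, and results were also computed with the 299 libraries within this bound alone. None of the 39 was of AKR/J, while they made up all 6 BALB/cJ HFHS libraries of day 2 and 7 of the 8 DBA/2J RC libraries of day 90. Another 3 of the 39 were among the 6 A/J HFHS libraries of day 2, and 2 among the 5 A/J RC libraries of that day. In 9 libraries, all among the 39, strain-telling genes matched another strain than the labelled one: 2 HFHS and 2 RC libraries of C57Bl/6J at day 90, and 2 HFHS and 3 RC libraries of 129S2/SvPas at day 2. All levels below are CPM scaled by TMM and adjusted for each library's dependence on GC content. Fold changes are log2 values with their standard error (SE) from edgeR's quasi-likelihood test, and a gene counts as called where its p, adjusted by Benjamini-Hochberg over all 16214 genes tested, is under 0.05.

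When unfolded proteins gather in the ER, the sensors ATF6, IRE1 (gene Ern1) and PERK (gene Eif2ak3) start the unfolded protein response. ATF6 and the spliced form of XBP1 raise chaperone and ERAD genes, many of them through the ER stress response element in the promoter. PERK slows translation and raises ATF4, whose targets act in amino acid supply, redox balance and cell death through the C/EBP-ATF response element, and which other stress kinases can raise too. Beta cells make so much proinsulin that they hold a large chaperone pool even at rest.

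These elements are shown because they are the promoter sites named above for the 2 branches, although neither was in every gene of its list. The ER stress response element is CCAAT, any 9 bases, then CCACG, and was searched on both strands from 250 bases before to 50 bases after each start of transcription in a RefSeq promoter table on mouse build GRCm38.p6. It was in 39 of 32851 promoters (0.119%). Of the 38 genes 33 had a promoter in the table, and 10 of them held the element, all 10 among the 23 chaperone and ERAD genes with a promoter. The core CCACG alone, which is also the end of the full element, was in 27 of the 33, against 32.8% of all promoters. By list, it was in 21 of the 23 chaperone and ERAD genes and in 4 of the 6 ATF4 targets. In the lines below the capitals mark the element, read on the gene's own strand (CGTGG at the left and ATTGG at the right where it lies on the opposite strand). Hspa5 lies at chr2:34772020-34772048, Dnajc3 at chr14:118937822-118937850, Creld2 at chr15:88819515-88819543, Syvn1 at chr19:6046527-6046555 and Derl3 at chr10:75893237-75893265, all on the plus strand.
Hspa5: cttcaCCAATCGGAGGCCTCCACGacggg
Dnajc3: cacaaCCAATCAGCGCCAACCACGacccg
Creld2: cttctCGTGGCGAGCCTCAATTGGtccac
Syvn1: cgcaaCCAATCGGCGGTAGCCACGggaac
Derl3: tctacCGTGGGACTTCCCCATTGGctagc

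The C/EBP-ATF response element was searched as TGATG, any base, AA, on both strands. It was in 1304 promoters (3.97%) and in 4 of the 33, Herpud1, Trib3, Chac1 and Asns, thus in 3 of the 6 ATF4 targets and in 1 of the 23 chaperone and ERAD genes. Capitals again mark the element, which lies on the strand of the gene in Asns and on the opposite strand (TT, any base, CATCA) in the other 3. Chac1 lies at chr2:119351039-119351066 and Herpud1 at chr8:94386307-94386334 on the plus strand, and Trib3 at chr2:152344029-152344056 and Asns at chr6:7693215-7693242 on the minus strand.
Chac1: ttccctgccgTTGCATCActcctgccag
Trib3: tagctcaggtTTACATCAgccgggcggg
Asns: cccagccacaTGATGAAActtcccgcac
Herpud1: ccacggcgggTTGCATCAgcccgcaccc
A match describes the letters only and is not evidence of binding.

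Across the 24 comparisons of HFHS with RC, 1 per strain and day, the 38 genes were called higher 100 times and lower 48 times in 912 tests (16.2%), against 8.13% of the tests of all genes. The total includes 24 calls in BALB/cJ at day 2, where all HFHS libraries were beyond the GC bound. It also includes 14 calls in 129S2/SvPas at day 2, where none was left without the libraries that matched another strain. AKR/J held 58 of the calls. In this strain 14.7%, 0.833%, 0.419% and 21.2% of all genes were called at days 2, 10, 30 and 90. Of the 27 chaperone and ERAD genes 26 and 24 were higher on HFHS in AKR/J at days 2 and 90. In A/J at day 2, 16 of them were lower, and in BALB/cJ at day 10, 8 were. In C57Bl/6J no gene of the 38 was called on any day. Of all genes, 0.241%, 0.0185%, 2.15% and 0.253% were called there at days 2, 10, 30 and 90.

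**Figure D1:**
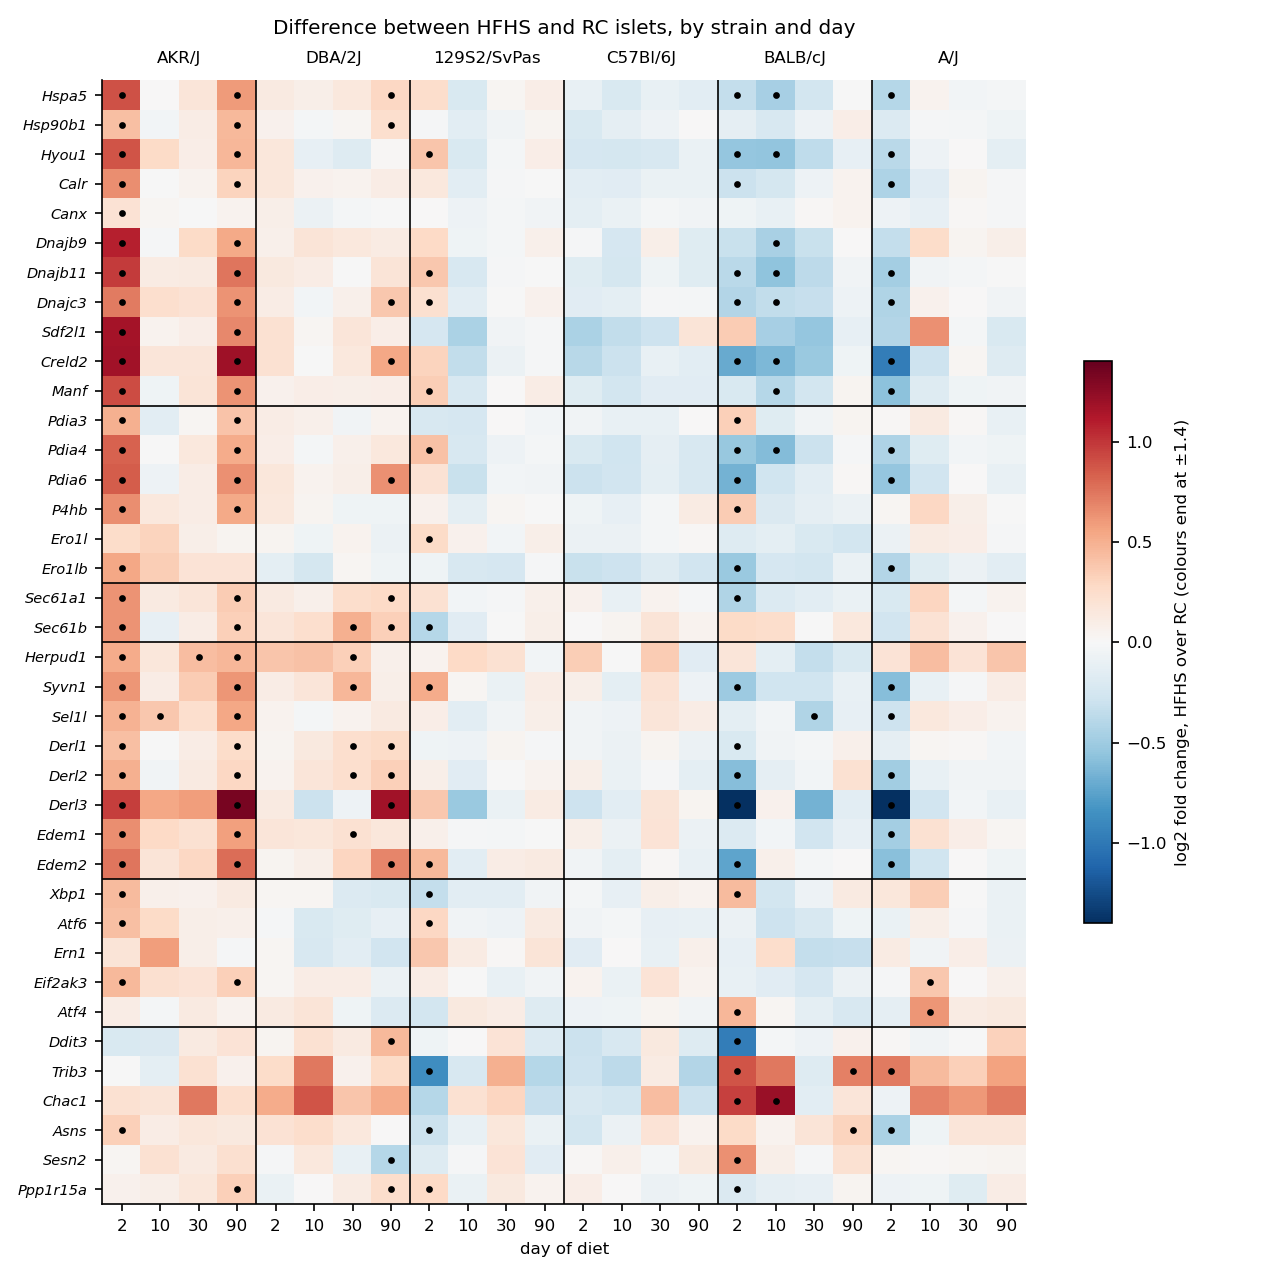
Log2 fold change (HFHS minus RC) of each of the 38 genes, in rows grouped by role, for 6 strains and 4 days, in columns. Dots mark genes called at an adjusted p under 0.05; AKR/J at days 2 and 90 carries 30 and 26 dots, and 11 columns carry none.

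In AKR/J after 2 days, 30 of the 38 genes were higher on HFHS and none was lower (6 HFHS and 5 RC mice, none with a library beyond the GC bound). Of all genes tested, 7.52% were called higher and 7.14% lower. The median fold change was 0.53 over the 38 genes, 0.65 over the chaperone and ERAD genes and 0.04 over the ATF4 targets, against -0.04 over all genes. The 30 were all 11 lumenal chaperones, 5 of 6 disulfide enzymes, both translocon subunits, all 8 ERAD genes, 3 of 5 sensors and 1 of 6 ATF4 targets. For 26 of the 38 genes every HFHS mouse was above every RC mouse, as it was for 6.56% of all genes.

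Among the lumenal chaperones, Hspa5 encodes BiP, the Hsp70 that binds unfolded chains and holds the sensors inactive. Its level was 2460, 3171 and 3563 CPM (lowest, median and highest) in the 6 HFHS mice, against 1631, 1856, 1646, 1778 and 1413 CPM in the 5 RC mice. The groups did not overlap, and the fold change was 0.90 ± 0.135 (SE, edgeR adjusted p = 8.3e-08). Its J-domain partners rose with it. Dnajb11, which feeds unfolded chains to BiP, had 177, 240 and 281 CPM on HFHS and 115.1, 125.97, 125.8, 125.6 and 100.1 CPM on RC, a fold change of 0.97 ± 0.138 (adjusted p = 1.31e-08). Dnajb9, which steers misfolded chains to degradation and represses IRE1, had 426, 547 and 588 CPM on HFHS and 225, 295, 242, 266 and 212 CPM on RC, a fold change of 1.08 ± 0.16 (adjusted p = 5.04e-08). For both, the lowest HFHS mouse was above the highest RC mouse. Dnajc3, a co-chaperone also known as an inhibitor of PERK, had 650, 690 and 811 CPM on HFHS and 462, 450, 408, 432 and 363 CPM on RC (0.73 ± 0.107, adjusted p = 3.56e-08). Calr, the lectin chaperone calreticulin, had 1240, 1526 and 1632 CPM on HFHS and 961, 982, 946, 1007 and 835 CPM on RC (0.65 ± 0.103, adjusted p = 4.12e-07). Creld2, a secreted ER stress protein, was at 143.5, 196 and 257 CPM on HFHS and at 88.2, 86, 94.2, 97.7 and 69.8 CPM on RC. None of these 3 overlapped between diets. The Creld2 fold change of 1.18 was the largest of the 38 genes in this comparison, next to 1.16 for Sdf2l1, a partner of the BiP J-domain proteins.

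The other lumenal genes rose as well. They were Manf, a growth factor retained in the ER (0.91), Hyou1, the nucleotide exchange factor of BiP (0.88), Hsp90b1, the Hsp90 of the ER (0.42), and Canx, the membrane lectin calnexin (0.20). The groups did not overlap for Manf, Hyou1 and Canx, and did for Hsp90b1.

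The enzymes that form and shuffle disulfide bonds, on which proinsulin folding depends, were raised with them. Pdia4 had 283, 347 and 428 CPM on HFHS and 202, 208, 210, 207 and 158.8 CPM on RC (0.83 ± 0.131, adjusted p = 2.7e-07). Pdia6, a disulfide isomerase that also binds IRE1, had 792, 1145 and 1233 CPM on HFHS and 603, 604, 585, 687 and 501 CPM on RC (0.84 ± 0.138, adjusted p = 7.46e-07). The groups did not overlap for either. P4hb, the founding isomerase of the family, had 1692, 1869 and 2131 CPM on HFHS and 1239, 1262, 1136, 1296 and 1080 CPM on RC (0.65 ± 0.126, adjusted p = 3.81e-05). Pdia3 (0.49) and Ero1lb, the oxidase of the pancreas that reoxidises the isomerases (0.54), were called, while its paralog Ero1l was not (0.26, adjusted p = 0.0671). Sec61a1, the pore of the translocon through which chains enter the ER, had 502, 539 and 637 CPM on HFHS and 354, 409, 354, 354 and 315 CPM on RC (0.63 ± 0.12, adjusted p = 2.31e-05). The small subunit Sec61b rose by the same amount (0.63, adjusted p = 0.0024), with groups that overlapped.

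ERAD draws terminally misfolded proteins back to the cytosol. Edem1, a mannosidase-like protein that marks such glycoproteins, had 219, 229 and 260 CPM on HFHS and 151.9, 157.7, 149.1, 155.8 and 131.6 CPM on RC (0.65 ± 0.0937, adjusted p = 2.02e-08). Edem2, which starts the same trimming, had 204, 227 and 231 CPM on HFHS and 127.8, 152.2, 123.5, 135.04 and 115.5 CPM on RC (0.75 ± 0.148, adjusted p = 4.65e-05). All 6 HFHS mice were above all 5 RC mice for both. Derl3, a derlin of the retrotranslocation complex that in most tissues is low at rest, had 44.4, 53.6 and 65.5 CPM on HFHS and 31.4, 26.8, 28.2, 30.8 and 19.4 CPM on RC (0.96 ± 0.263, adjusted p = 0.0057). The ubiquitin ligase Syvn1 (0.61), its partner Sel1l (0.49), the adaptor Herpud1 (0.52) and the derlins Derl1 (0.42) and Derl2 (0.50) were called with groups that did not overlap.

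**Figure D2:**
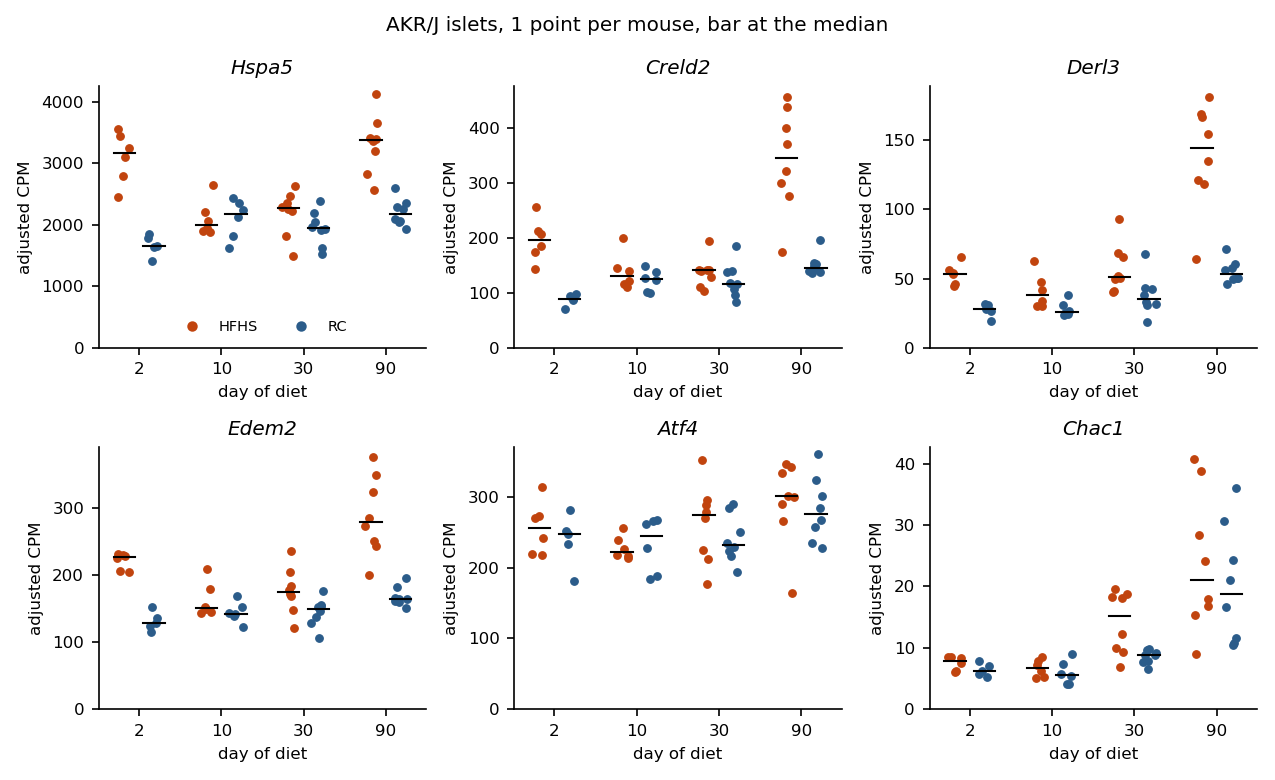
Adjusted CPM of 6 genes in every AKR/J mouse at days 2, 10, 30 and 90, with HFHS left of RC; points are mice and bars are group medians. At day 2 the HFHS mice of Hspa5, Creld2, Derl3 and Edem2 lie above all RC mice, while those of Atf4 and Chac1 overlap with RC.

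Fewer of the sensors and ATF4 targets were called, 3 of 5 and 1 of 6. Xbp1, whose transcript is spliced by IRE1 and whose total level is measured here, had 375, 400 and 445 CPM on HFHS and 300, 337, 284, 288 and 284 CPM on RC (0.44 ± 0.149, adjusted p = 0.0282), a call that was lost without RC mouse 3, 4 or 5. Eif2ak3 had 73, 86.6 and 94.3 CPM on HFHS and 67.2, 67.6, 62.6, 59.5 and 55.1 CPM on RC (0.45 ± 0.111, adjusted p = 0.00193). Neither overlapped, while Atf6 did (0.42, adjusted p = 0.00703). Ern1 was not called (0.18, adjusted p = 0.71). Atf4 itself, which is regulated mainly in translation, had 218, 256 and 314 CPM on HFHS and 180, 233, 248, 282 and 252 CPM on RC, groups that overlapped (0.10 ± 0.169, adjusted p = 0.75). Asns, asparagine synthetase, was the only ATF4 target called, at 88.2, 100.5 and 113.1 CPM on HFHS and 75, 79.2, 72.8, 87.7 and 84.8 CPM on RC (0.34 ± 0.121, adjusted p = 0.0417). Its call was lost without RC mouse 1, 2 or 3, with no filter on low counts (adjusted p = 0.0522) and with the acinar markers as a covariate (adjusted p = 0.0529). Chac1, which degrades glutathione, had 6.1, 7.87 and 8.51 CPM on HFHS and 5.28, 6.28, 5.71, 7.91 and 7.05 CPM on RC (0.22, adjusted p = 0.721). Ddit3, the death-linked factor CHOP, had 9.51, 13.2 and 14.5 CPM on HFHS and 12.6, 11.9, 15.6, 17.8 and 16.4 CPM on RC (-0.21, adjusted p = 0.524). Both overlapped, as did Trib3, a pseudokinase induced by CHOP (-0.00), Sesn2, a leucine sensor of the mTORC1 pathway (0.03), and Ppp1r15a, the phosphatase subunit that restores translation (0.06).

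Several marker lists of other cell types differed with diet in the same mice. The 20 acinar markers summed to 1048, 4318 and 6206 CPM in the HFHS mice and 1182, 1697 and 4088 CPM in the RC mice (lowest, median and highest), and all 30 genes but Asns stayed called with the acinar level as a covariate. The 6 stellate markers summed to 284 to 1304 CPM on HFHS and 973 to 1653 CPM on RC, and the 4 endothelial markers to 420 to 602 CPM and 612 to 829 CPM. The 5 genes of early response and isolation stress summed to 48.9 to 83.0 CPM on HFHS and 68.0 to 94.6 CPM on RC. The 5 plasma and B cell markers in the table, of a cell type rich in ER, summed to 1.86 to 18.4 CPM on HFHS and 6.10 to 170.5 CPM on RC. No marker of these lists was at 0 in every mouse of either group, and the part of the stellate, endothelial, plasma cell and early response lists in the result was not tested.

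After 10 and 30 days few genes passed the test in AKR/J. Sel1l was the only gene called at day 10 (0.38), where 0.401% of all genes were called higher, and Herpud1 the only one at day 30 (0.43), where 0.111% were. At an unadjusted p under 0.05 there were 9 genes at day 10 and 11 at day 30. At day 30 the fold change was above 0 for 37 of the 38 genes, with a median of 0.14 against -0.00 over all genes.

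After 90 days, 26 of the 38 genes were higher on HFHS in AKR/J (8 mice per diet) and none was lower, with a median fold change of 0.38, against -0.02 over all genes. Of all genes tested, 11.0% were called higher and 10.2% lower. The 26 were 24 of the 27 chaperone and ERAD genes (median 0.53), all except Canx, Ero1l and Ero1lb, together with Eif2ak3 and Ppp1r15a. Creld2 had 175, 347 and 458 CPM (lowest, median and highest) on HFHS and 136.97, 146.2 and 196 CPM on RC (1.18 ± 0.161, adjusted p = 4.43e-10). Dnajc3 had 702, 1006 and 1186 CPM on HFHS and 618, 637 and 763 CPM on RC (0.62 ± 0.0876, adjusted p = 1.38e-09). Hspa5 had 2563, 3381 and 4124 CPM on HFHS and 1933, 2170 and 2606 CPM on RC (0.59 ± 0.11, adjusted p = 5.81e-06). For all 3 genes the lowest HFHS mouse was below the highest RC mouse. Dnajb11 had 164, 251 and 298 CPM on HFHS and 131.5, 139.3 and 179 CPM on RC (0.75 ± 0.113, adjusted p = 1.35e-08). Pdia3, the isomerase that works with the lectin chaperones, had 1878, 2203 and 2579 CPM on HFHS and 1564, 1654 and 1845 CPM on RC (0.40 ± 0.0947, adjusted p = 0.000438). P4hb had 1685, 2384 and 2882 CPM on HFHS and 1514, 1607 and 1754 CPM on RC (0.53 ± 0.103, adjusted p = 1.65e-05). Only Pdia3 and Edem2 had every HFHS mouse above every RC mouse, a pattern of 3.04% of all genes. The same HFHS mouse was the lowest of its group for 25 of the 27 chaperone and ERAD genes, and the same RC mouse the highest of its group for 19 of the 27.

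Among the ERAD genes, Derl3 had the largest fold change of the 38 genes at day 90. Its level was 64.3, 144.8 and 181 CPM on HFHS and 46.3, 53.6 and 71.1 CPM on RC (1.33 ± 0.215, adjusted p = 1.77e-07). Edem2 had 200, 279 and 376 CPM on HFHS and 150.4, 163 and 194 CPM on RC (0.78 ± 0.121, adjusted p = 4.11e-08). Edem1 had 194, 307 and 332 CPM on HFHS and 178, 196 and 217 CPM on RC (0.58 ± 0.0767, adjusted p = 1.76e-10). The HFHS median was above the highest RC mouse for all 3 genes. Syvn1 (0.62), Sel1l (0.54), Herpud1 (0.46), Derl2 (0.29) and Derl1 (0.25) completed the 8. Eif2ak3 had 92.2, 116.8 and 134.5 CPM on HFHS and 74.6, 89.6 and 108.7 CPM on RC (0.33 ± 0.0911, adjusted p = 0.00316), while Xbp1 (0.13), Atf6 (0.07), Atf4 (0.05) and Ern1 (-0.01) were not called. Ppp1r15a had 38.4, 45.2 and 56.9 CPM on HFHS and 32.7, 36.5 and 41.3 CPM on RC (0.33 ± 0.0738, adjusted p = 0.000215). The other ATF4 targets were not called, and Chac1 ranged widely within both groups, at 9.04, 21 and 40.8 CPM on HFHS and 10.5, 18.8 and 36 CPM on RC. Acinar markers ran the other way from day 2, with sums of 592, 2681 and 7564 CPM on HFHS and 4293, 7030 and 28480 CPM on RC, and insulin reads made up 27.8% to 33.4% on HFHS and 22.5% to 26.2% on RC. Plasma and B cell markers summed to 2.20 to 223 CPM on HFHS and 6.99 to 140.3 CPM on RC, and early response genes to 63.0 to 99.1 CPM and 85.5 to 258 CPM. Stellate markers had medians of 217.5 CPM on HFHS and 418 CPM on RC, with ranges that overlapped, and duct markers of 210.5 CPM on HFHS and 186.3 CPM on RC. All 26 genes stayed called with the acinar level as a covariate, and the part of the insulin share and of the other lists was not tested.

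The mean log2 level of each list per mouse, set to 0 at the median over all mice for each gene, shows the 2 branches side by side. In AKR/J at day 2 the chaperone and ERAD mean was 0.22 ± 0.12 on HFHS and -0.47 ± 0.11 on RC (SD), while the mean of the ATF4 targets was -0.62 ± 0.09 and -0.69 ± 0.10. At day 90 it was 0.50 ± 0.20 on HFHS and -0.01 ± 0.09 on RC for chaperone and ERAD genes, and 0.08 ± 0.27 and -0.11 ± 0.26 for the ATF4 targets. The AKR/J RC mice of day 2 had the lowest chaperone and ERAD mean of the 48 groups, and the highest was that of DBA/2J on HFHS at day 90 (0.55 ± 0.19, against 0.33 ± 0.17 on RC). For the ATF4 targets the highest of the 48 means was that of 129S2/SvPas on RC at day 90, with 0.64 ± 0.22 on HFHS and 0.85 ± 0.16 on RC. The lowest was that of AKR/J on RC at day 10, with -0.64 ± 0.11 on HFHS and -0.70 ± 0.24 on RC.

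**Figure D3:**
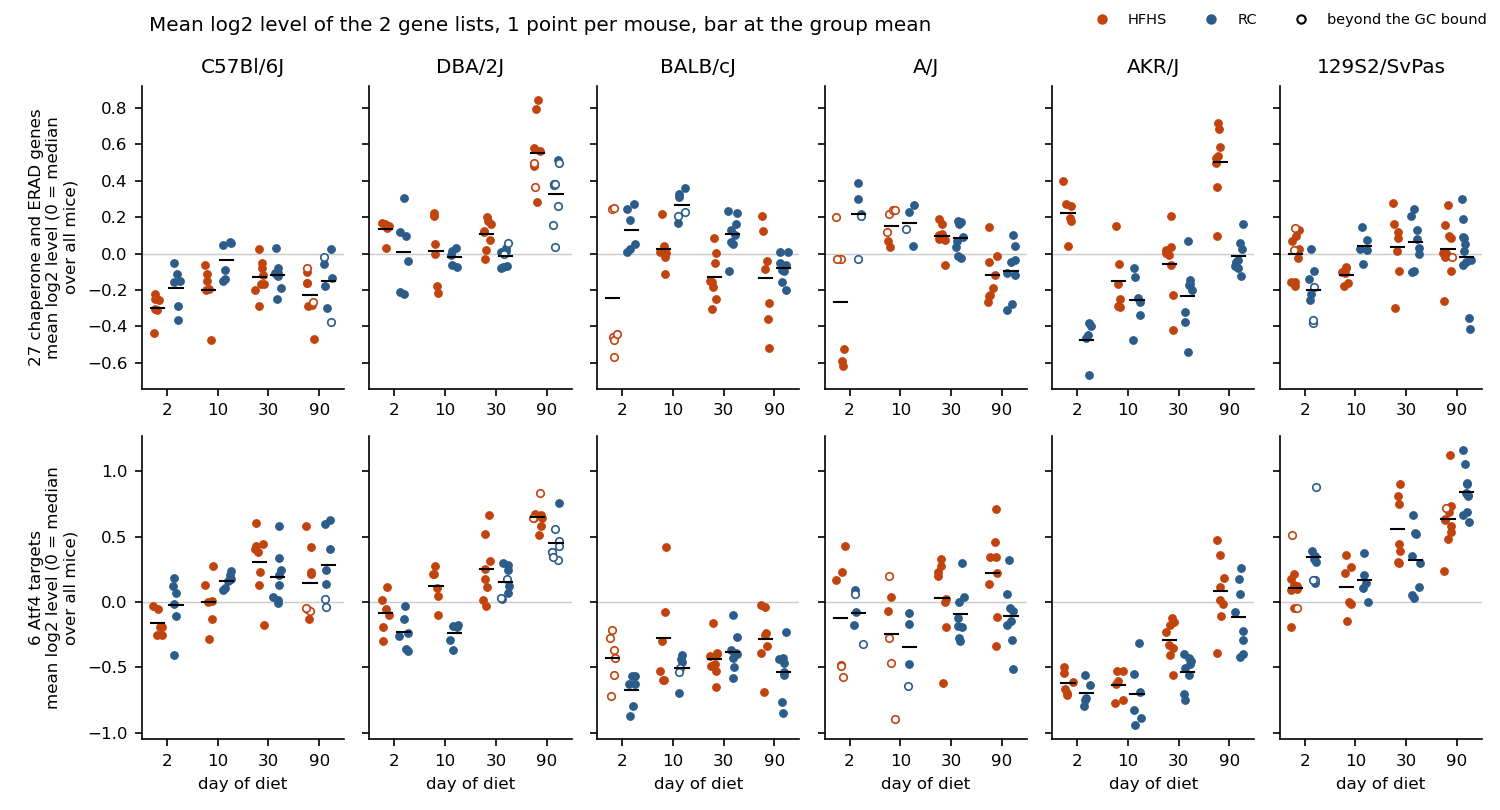
Mean log2 level of the chaperone and ERAD genes and of the ATF4 targets by strain and day, HFHS left of RC; 0 is the median over all mice, points are mice (open where beyond the GC bound) and bars are group means. The chaperone and ERAD mean of AKR/J is 0.22 on HFHS and -0.47 on RC at day 2, while the ATF4 target mean is -0.62 and -0.69.

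A/J at day 2 went the other way. On HFHS 17 of the 38 genes were lower and 1 was higher, with a median fold change of -0.28 against 0.02 over all genes. Of all genes 12.7% were called higher and 10.7% lower. The 17 were 16 chaperone and ERAD genes (median -0.41) and Asns. Within the GC bound, with 3 mice per diet, 28 genes were lower and 2 higher, where 13.4% of all genes were called higher and 13.2% lower. 26 of the 27 chaperone and ERAD genes were then among the lower ones (median -0.84), and none of the 6 ATF4 targets was. With the libraries of day 2 alone in the fit, 11 genes were called.

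Derl3 differed most. It had 3.6, 4.77 and 7.79 CPM (lowest, median and highest) in the 6 HFHS mice, against 25.7, 27.8, 36.6, 29.6 and 24.7 CPM in the 5 RC mice (-2.54 ± 0.282, adjusted p = 2.44e-14). The groups were far apart, and within the GC bound the fold change was -2.96. Hspa5 had 1744, 2164 and 3554 CPM on HFHS, with 1827, 1744 and 1751 CPM in the 3 mice within the bound. On RC it had 2550, 3410, 3639, 3067 and 2676 CPM, of which the first and the last were beyond the bound. The fold change of Hspa5 was -0.40 ± 0.132 over all mice (adjusted p = 0.0183) and -0.93 within the bound (adjusted p = 1.18e-06), and the call over all mice was lost without RC mouse 2 or 3. Creld2 had 61.9, 90 and 161.6 CPM on HFHS (61.9, 63.8 and 71.5 CPM within the bound) and 131.1, 204, 244, 204 and 236 CPM on RC (-0.96 ± 0.193, adjusted p = 4.56e-05). Sdf2l1 shows how the libraries beyond the bound spread. It had 56.3, 119.5 and 728 CPM on HFHS and 178, 288, 305, 271 and 388 CPM on RC, and was not called (-0.41, adjusted p = 0.241). Its 3 HFHS mice within the bound had 63.5, 56.3 and 64.3 CPM, with a fold change of -2.23 (adjusted p = 7.63e-19).

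**Figure D4:**
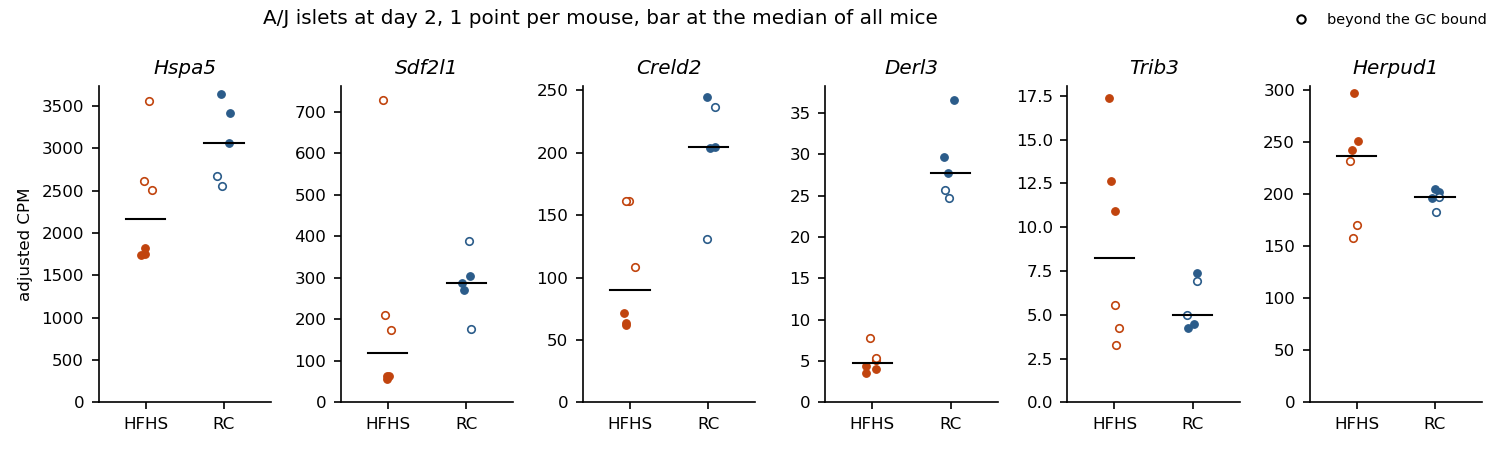
Adjusted CPM of 6 genes in every A/J mouse at day 2, HFHS left of RC; bars are medians, open circles are libraries beyond the GC bound and filled ones within it. Filled HFHS circles lie below filled RC circles for Hspa5, Sdf2l1, Creld2 and Derl3 and above them for Trib3 and Herpud1.

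Trib3 was the gene that was higher in A/J at day 2. It had 3.25, 8.25 and 17.4 CPM on HFHS and 6.92, 7.41, 4.46, 4.26 and 4.96 CPM on RC (0.72 ± 0.271, adjusted p = 0.0379). The 3 HFHS mice within the bound had 12.6, 17.4 and 10.9 CPM, above every RC mouse, and a fold change of 1.34 (adjusted p = 0.000818); the call over all mice was lost without RC mouse 3, 4 or 6. Within the bound Ddit3 was also called (0.50, adjusted p = 0.023; 0.01 over all mice). Asns had 85.1, 95.9 and 106 CPM on HFHS and 141.3, 149.8, 122.9, 116.5 and 125.7 CPM on RC, with no overlap (-0.44 ± 0.12, adjusted p = 0.00299), and was not called within the bound (-0.36, adjusted p = 0.0606). Without the adjustment for GC content the fold changes of Hspa5, Derl2 and Dnajc3 were -0.02, 0.01 and 0.03, against -0.40, -0.49 and -0.42 with it. The 6 stellate markers summed to 392 to 491 CPM on HFHS and 928 to 1863 CPM on RC, the 5 early response and isolation stress genes to 68.0 to 256 CPM and 68.5 to 103.6 CPM, and insulin reads to 0.51% to 21.2% and 3.71% to 38.9%. Macrophage markers summed to 26.1 to 181 CPM on HFHS and 112.6 to 293 CPM on RC. Acinar markers summed to 50.4, 1719 and 4026 CPM on HFHS and 2129, 3477 and 19770 CPM on RC, and plasma and B cell markers to 10.5, 25.4 and 362 CPM on HFHS and 27.2, 198.4 and 394 CPM on RC (lowest, median and highest). With the acinar level as a covariate 16 genes were called lower and 1 higher, and the part of the other lists in the result was not tested. At days 30 and 90 no gene of the 38 was called in A/J. At day 10 Atf4 (0.61) and Eif2ak3 (0.38) were called higher, where 3.07% of all genes were, but within the bound they were at -0.24 and 0.11 and not called.

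In BALB/cJ at day 10 (6 mice per diet) 8 genes were lower on HFHS and 1 was higher, where 6.44% of all genes were called lower and 4.83% higher. The 8 were chaperone and ERAD genes, 7 of the 11 lumenal chaperones and Pdia4. Pdia4 had 239, 274 and 332 CPM on HFHS and 386, 423 and 470 CPM on RC (-0.61 ± 0.123, adjusted p = 9.55e-05). Dnajb11 had 135.9, 154.2 and 190 CPM on HFHS and 200, 234 and 257 CPM on RC (-0.57 ± 0.13, adjusted p = 0.000739). Hyou1 had 971, 1135 and 1626 CPM on HFHS and 1695, 1752 and 1869 CPM on RC (-0.55 ± 0.137, adjusted p = 0.00194). None of these overlapped between diets. Hspa5 had 1826, 2115 and 2578 CPM on HFHS and 2592, 2964 and 3328 CPM on RC (-0.47 ± 0.126, adjusted p = 0.00575), and Dnajb9 also separated the diets (-0.45). Creld2 (-0.63), Manf (-0.40) and Dnajc3 (-0.34) were called with overlap. No ERAD gene was called. Within the GC bound 12 genes were lower and 1 higher, where 6.67% of all genes were called lower and 4.90% higher.

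The gene that was higher at day 10 in BALB/cJ was Chac1. It had 6.42, 11.4 and 44.7 CPM on HFHS and 5.65, 7.22 and 8.82 CPM on RC (1.21 ± 0.313, adjusted p = 0.00347). The mouse at 44.7 CPM also had the highest sum of acinar markers of all mice, 112800 CPM. Acinar sums were 1161, 22230 and 112800 CPM on HFHS and 663, 3492 and 13660 CPM on RC, and Chac1 stayed called with the acinar level as a covariate. The early response and isolation stress genes summed to 61.8 to 110.9 CPM on HFHS and 34.0 to 54.7 CPM on RC, and the endothelial markers to 548 to 643 CPM on HFHS and 419 to 511 CPM on RC, both without overlap. The part of these 2 lists in the result was not tested. Among the other ATF4 target genes, Fgf21 (4.88), Nupr1 (3.84) and Gdf15 (2.60) were higher on HFHS in the same comparison. They encode a stress hormone, a stress-induced chromatin protein and a stress cytokine. Their values per mouse and the other genes of that list are not described here for this comparison. The mean log2 level of the ATF4 targets per mouse ranged from -0.59 to 0.42 on HFHS and from -0.69 to -0.40 on RC. The acinar pancreas is known to express Fgf21 and Nupr1, and the part of the acinar level in these 3 values was not tested.

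BALB/cJ at the other days gave fewer calls or calls that cannot be checked. At day 30 Sel1l alone was called lower, at 164, 180 and 195 CPM on HFHS and 184, 256 and 297 CPM on RC (-0.42 ± 0.0911, adjusted p = 0.00591), where 0.271% of all genes were. All libraries of these 2 groups were within the GC bound, and with the libraries beyond it left out of the other groups 14 genes were called lower, 13 of them chaperone and ERAD genes, where 3.12% of all genes were. At day 90, 2 genes were called higher, where 4.56% of all genes were. Trib3 was at 2.25, 3.47 and 4.7 CPM on HFHS and 1.5, 2.12 and 2.76 CPM on RC (0.70 ± 0.235, adjusted p = 0.0442). Asns was at 73.6, 102.2 and 133.4 CPM on HFHS and 72, 83.5 and 99.2 CPM on RC (0.31 ± 0.103, adjusted p = 0.0402). Both overlapped between diets, and neither was called without the adjustment for GC content (adjusted p = 0.17 and 0.196). At day 2, 7 genes were higher and 17 lower on HFHS, where 22.4% and 19.9% of all genes were, but all 6 HFHS libraries were beyond the bound and no value within it exists.

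In DBA/2J at day 30, 6 genes were higher on HFHS, where 6.54% of all genes were, and none was lower. Sec61b had 58.9, 71.7 and 87.6 CPM on HFHS and 43.9, 52.8 and 57.1 CPM on RC, with no overlap (0.50 ± 0.127, adjusted p = 0.00255). Syvn1 had 127.4, 152.1 and 172 CPM on HFHS and 91.9, 108.1 and 136.4 CPM on RC, with overlap (0.47 ± 0.117, adjusted p = 0.00196). The other 4 were the ERAD genes Herpud1 (0.33), Derl1 (0.24), Derl2 (0.24) and Edem1 (0.21). No lumenal chaperone was among them. Insulin reads made up 21.9% to 27.6% on HFHS and 10.8% to 23.6% on RC. The duct markers had medians of 216.8 CPM on HFHS and 160.9 CPM on RC, with no overlap between the diets, and the macrophage markers had medians of 81.5 CPM on HFHS and 56.5 CPM on RC. The part of these values in the result was not tested. Derl1 (0.13), Edem1 (0.01) and Derl2 (-0.05) were not called without the adjustment for GC content.

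At day 90 in DBA/2J, 13 genes were higher on HFHS and 1 was lower, where 15.4% and 17.1% of all genes were. Derl3 had 33.9, 61.5 and 137.1 CPM on HFHS and 9.84, 32.8 and 53.3 CPM on RC (1.18 ± 0.217, adjusted p = 3.2e-06). Edem2 had 158.9, 251 and 328 CPM on HFHS and 108.98, 144.05 and 196 CPM on RC (0.69 ± 0.121, adjusted p = 1.06e-06). Sesn2 was the gene that was lower, with 42.4, 48.5 and 79.4 CPM on HFHS and 48.1, 70.3 and 86.5 CPM on RC (-0.40 ± 0.11, adjusted p = 0.00193). All 3 overlapped between diets. Insulin reads made up 1.92%, 28.2% and 36.1% on HFHS and 0.753%, 4.68% and 23.0% on RC (lowest, median and highest). Duct markers summed to 51.6 to 299.7 CPM on HFHS and 46.9 to 182.2 CPM on RC, and macrophage markers had medians of 96.6 CPM on HFHS and 49.3 CPM on RC. The part of these values in the result was not tested. Without the adjustment for GC content Sesn2 was called in the other direction (0.72, adjusted p = 0.00194), and Hspa5, Hsp90b1, Dnajc3 and Derl2, called higher with it, were below 0. Only 1 of the 8 RC libraries was within the GC bound. Against that library alone, assumed to vary like the other groups, no gene was called higher and 1 was called lower, where 3.82% and 4.45% of all genes were.

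In 129S2/SvPas at day 2, 10 genes were higher and 4 lower on HFHS, where 6.94% and 12.8% of all genes were. Without the 9 libraries that matched another strain, 5 of which were in these 2 groups, none was called, where 0.136% of all genes were called higher and 0.0494% lower. Within the GC bound none was called either (1.65% and 0.353%). The comparisons with no gene called by edgeR were those of C57Bl/6J at all 4 days, of DBA/2J at days 2 and 10, of A/J at days 30 and 90, and of 129S2/SvPas at days 10, 30 and 90. In these 11 comparisons between 1 and 7 of the 38 genes had an unadjusted p under 0.05, 7 of them in C57Bl/6J at day 2, and DESeq2 called none either. Few of all genes were called by edgeR in them, from 0.00617% in DBA/2J at day 10 to 2.15% in C57Bl/6J at day 30.

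Averaged over the 6 strains, the diet effect on these genes was small. At day 2 edgeR called 2 genes higher (9.41% of all genes) and 2 lower (10.9%): Herpud1 (0.28 ± 0.0535, adjusted p = 2.91e-05), P4hb (0.20), Derl3 (-0.48 ± 0.102, adjusted p = 0.00021) and Ddit3 (-0.25). Ddit3 was at -0.03 and P4hb at 0.05 (adjusted p = 0.368) within the GC bound, neither of them called, and P4hb was not called without the adjustment for GC content either (0.08). Without the adjustment for GC content 9 genes were called higher and 6 lower at day 2, where 18.5% and 22.5% of all genes were. At day 10, 2 were higher (1.25%) and 2 lower (0.987%), namely Chac1 (0.49), Herpud1 (0.19), Pdia4 (-0.22) and Pdia6 (-0.19). Within the bound 1 gene was higher and 13 were lower at day 10, where 3.39% and 3.63% of all genes were, and without the adjustment none was higher and 2 were lower (0.418% and 0.533%). At day 30, Herpud1 (0.20 ± 0.047, adjusted p = 0.00127), Asns (0.17) and Chac1 (0.39) were higher (4.63%) and none was lower (6.01%). Herpud1, the ERAD gene with a C/EBP-ATF response element, was thus called at 3 of the 4 days, although its call at day 10 was lost within the bound (adjusted p = 0.0818) and without the adjustment (adjusted p = 0.328). Without the adjustment Chac1 at day 10 (adjusted p = 0.226) and Asns at day 30 (adjusted p = 0.0718) were not called either.

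At day 90, 14 genes were higher (10.4% of all genes) and none was lower (8.60%). They were 13 chaperone and ERAD genes and Ppp1r15a (0.12), led by Edem2 (0.24 ± 0.0487, adjusted p = 7.3e-05), Derl3 (0.40 ± 0.0874, adjusted p = 0.000234) and Dnajc3 (0.15 ± 0.0353, adjusted p = 0.000539). Hspa5 was called at 0.13, and was at 0.09 within the bound (adjusted p = 0.24). Pdia6, Creld2, Derl1, Derl2, Edem1 and Sec61b were not called within it either. Within the bound 8 were higher and 1 lower, where 7.85% and 8.63% of all genes were. The means include the AKR/J values given above.

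The diet effect differed between strains for most of these genes at the first and last day. In the test of strain by diet interaction 36 of the 38 genes were called at day 2 (56.1% of all genes), all except Herpud1 and Ern1. Derl3 had the largest F (24, adjusted p = 1.83e-17), with fold changes of 0.96 in AKR/J, -1.49 in BALB/cJ and -2.54 in A/J. All 6 BALB/cJ HFHS libraries of that day were beyond the GC bound, so the BALB/cJ value cannot be checked within it. In 129S2/SvPas 2 HFHS and 3 RC libraries of that day matched another strain. At day 90, 27 genes were called (38.8%), led by Pdia6 (F = 11.8, adjusted p = 2.41e-08) and Creld2 (F = 11.4, adjusted p = 5.34e-08). At day 10 there were 3 (7.23%), Dnajb11, Hyou1 and Dnajc3, and at day 30 there were 6 (6.78%), led by Sel1l (F = 6.57, adjusted p = 0.000479). The 3 of day 10 fell to 0 without A/J RC mouse 18 and were 10 within the bound, where 10.9% of all genes were called. Of the libraries behind the test at day 90, 7 of the 8 DBA/2J RC libraries were beyond the bound. In C57Bl/6J 2 HFHS and 2 RC libraries of day 90 matched another strain.

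On RC alone all 38 genes differed between strains, where 93.4% of all genes did. Reads were aligned to mm9, the genome of C57BL/6J, and the effect of sequence differences of the other strains on their counts was not tested. The strain values on RC include 3 libraries of 129S2/SvPas at day 2 and 2 of C57Bl/6J at day 90 that matched another strain. The largest F was that of Ero1lb (262). Its level over the RC mice of all days was 390, 558 and 756 CPM (lowest, median and highest) in AKR/J and 353, 843 and 1882 CPM in 129S2/SvPas. In the other strains the medians were 2068 CPM in C57Bl/6J, 2123 CPM in A/J, 2166 CPM in DBA/2J and 2460 CPM in BALB/cJ. Within the GC bound the highest 129S2/SvPas mouse had 1093 CPM and the lowest mouse of the other 4 strains, of A/J, 1636 CPM, so that AKR/J and 129S2/SvPas lay below the others without overlap. Sec61b was at 14.5, 20.4 and 27.7 CPM in AKR/J, and no mouse of another strain was below 41.1 CPM (-1.54 ± 0.0625 against the mean of the other 5 strains, adjusted p = 3.36e-71). Edem2 had 210, 302 and 357 CPM in BALB/cJ, against medians of 150.7 to 225 CPM in the other strains (0.84 ± 0.0475, adjusted p = 7.75e-46).

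Of the 6 ATF4 targets, Trib3, Chac1 and Asns ranked the strains nearly alike, and the order for Ddit3, Sesn2 and Ppp1r15a is not described here. On RC the medians of Trib3 were 2.21 CPM in BALB/cJ, 3.30 CPM in AKR/J, 4.46 CPM in A/J, 6.52 CPM in DBA/2J, 7.42 CPM in C57Bl/6J and 10.1 CPM in 129S2/SvPas. Every neighbouring pair in this order overlapped in its range, while BALB/cJ (at most 3.88 CPM) did not overlap with 129S2/SvPas (at least 4.41 CPM). Chac1 had medians of 7.94 CPM in BALB/cJ, 8.83 CPM in AKR/J, 12.1 CPM in A/J, 19.0 CPM in C57Bl/6J, 19.8 CPM in DBA/2J and 31.2 CPM in 129S2/SvPas. Asns had medians of 85.9 CPM in BALB/cJ, 95.8 CPM in AKR/J, 118.5 CPM in A/J, 133.4 CPM in C57Bl/6J, 141.1 CPM in DBA/2J and 177 CPM in 129S2/SvPas. For Asns all BALB/cJ mice (65.0 to 111.2 CPM) lay below all 129S2/SvPas mice (131.2 to 322 CPM).

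Against the mean of the other 5 strains, 129S2/SvPas had 15 of the 38 genes higher and 11 lower (27.9% and 22.3% of all genes). Among them were Chac1 (1.36 ± 0.0978, adjusted p = 1.92e-32), Trib3 (1.20 ± 0.0851, adjusted p = 4.23e-33), Asns (0.68) and Derl3 (0.53), and on the lower side Ero1lb (-0.91). Of the 35 other ATF4 target genes 30 were higher and 2 lower in 129S2/SvPas, with a median of 0.38 against 0.01 over all genes, among them the serine synthesis enzymes Phgdh (1.83) and Psat1 (1.11) and the mitochondrial folate enzymes Aldh1l2 (1.27) and Shmt2 (0.56). BALB/cJ had 19 genes higher and 8 lower (27.3% and 28.2%), with Ero1lb at 0.87, Trib3 at -1.50 ± 0.109 (adjusted p = 6.5e-32), Chac1 at -1.17 and Asns at -0.58. AKR/J had 1 higher and 30 lower (27.1% and 25.7%). These included all 6 ATF4 targets (median -0.48), all 5 sensors and transcription factors (median -0.29) and 19 of the 27 chaperone and ERAD genes (median -0.20), and 25 of the 35 other ATF4 target genes were lower as well. C57Bl/6J had 10 higher and 16 lower (27.8% and 27.6%), with Trib3 (0.80), Chac1 (0.55), Ero1lb (0.51) and Derl3 (-0.91) past 0.5 in size. DBA/2J had 20 higher and 5 lower (27.7% and 29.3%), and A/J 17 higher and 7 lower (30.5% and 27.1%). In these 2 strains only Ero1lb (0.66 and 0.63) and, in A/J, Sec61b (0.60) passed 0.5.

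**Figure D5:**
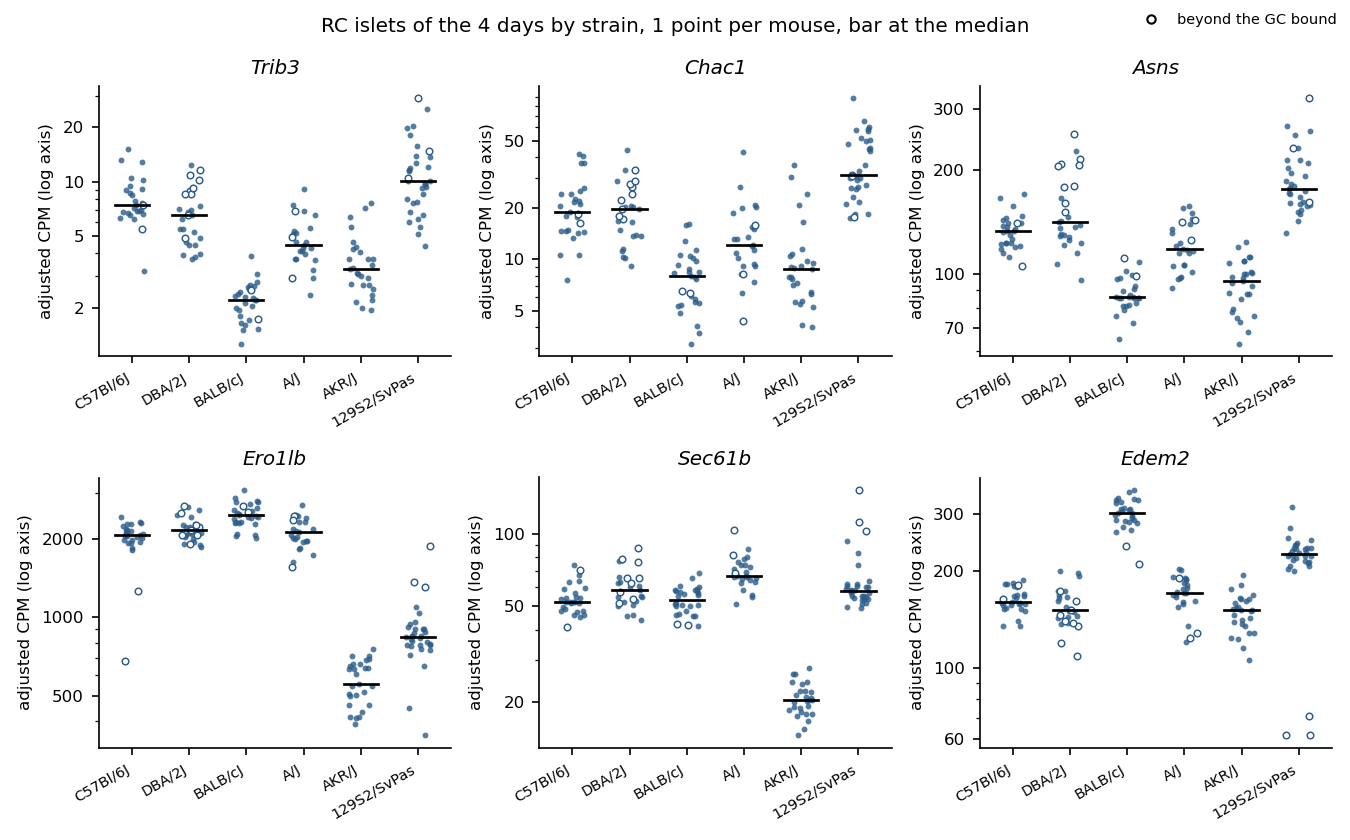
Adjusted CPM of 6 genes in every RC mouse by strain, all days together, on a log axis; bars are medians and open circles are libraries beyond the GC bound. Trib3, Chac1 and Asns have their lowest medians in BALB/cJ and their highest in 129S2/SvPas, and Ero1lb and Sec61b their lowest in AKR/J.

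The ATF4 targets were called higher at day 90 than at day 2 on both diets over all libraries. Age and time on the diet are the same here and cannot be told apart. On RC, 15 of the 38 genes were higher at day 90 than at day 2 (13.5% of all genes) and 1 was lower (17.8%), as means over strains. All 6 ATF4 targets were higher (median 0.25), and of the 35 other ATF4 target genes 22 were higher and none lower. Chac1 had medians of 13.4, 15.4, 19.6 and 28.4 CPM at days 2, 10, 30 and 90 on HFHS and 12.7, 10.5, 15.3 and 23.3 CPM on RC, with ranges that overlapped. Its change over the period was 1.02 ± 0.116 on HFHS (adjusted p = 1.05e-14) and 1.01 ± 0.119 on RC (adjusted p = 1.04e-13). Atf4 (0.34 ± 0.062, adjusted p = 1.06e-06), Herpud1 (0.38), Trib3 (0.49), Ddit3 (0.26), Asns (0.23), Sesn2 (0.19) and Ppp1r15a (0.10) were higher on RC, while 6 of the 27 chaperone and ERAD genes were higher and Derl2 was lower (-0.10). Of these, Sesn2 (0.11, adjusted p = 0.0705), Syvn1 (0.10), Hyou1 (0.09) and Derl2 (-0.03) were not called within the GC bound, nor was Ern1 (0.12, against 0.33 over all libraries), and without the 9 libraries that matched another strain Ppp1r15a (0.07, adjusted p = 0.067), Derl3 (0.19), Hyou1 (0.10) and Derl2 (-0.07) were not. Without the adjustment for GC content 7 genes were called on RC, Chac1, Trib3, Asns, Atf4, Herpud1, Ern1 and Eif2ak3, all of them higher, where 9.24% of all genes were called higher.

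Marker lists of other cell types moved over the same days. The medians of the stellate sums were 164.6 to 771 CPM at day 90 and 364 to 1277 CPM at day 2 over the 6 strains on RC, lower at day 90 in 5 of them, all except BALB/cJ. On HFHS they were 145.3 to 871 CPM at day 90 and 347 to 662 CPM at day 2, lower at day 90 in 5, all except A/J. The medians of the early response and isolation stress genes were higher at day 90 in 4 of the 6 strains on either diet, and in BALB/cJ on RC they were 145.6 CPM at day 90 and 45.4 CPM at day 2. Macrophage medians were higher at day 90 in 5 strains on HFHS and in 2 on RC. The part of these lists in the changes over time was not tested.

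On HFHS 22 of the 38 genes were higher at day 90 than at day 2 and none was lower, where 22.8% and 24.2% of all genes were. Again all 6 ATF4 targets were higher (median 0.43), and now 14 of the 27 chaperone and ERAD genes as well (median 0.12). Among these 14, Derl3 had the largest change (1.16 ± 0.0975, adjusted p = 2.94e-24), and Creld2 (0.38), Edem2 (0.36), Syvn1 (0.29) and Pdia6 (0.24) followed. Of the ATF4 targets, Ddit3 (0.62), Trib3 (0.51) and Asns (0.36) came after Chac1, and the call of Sesn2 (0.11) was lost without the 9 libraries that matched another strain (0.09, adjusted p = 0.0937). Without the adjustment for GC content 21 were higher and 6 lower, where 30.9% and 30.3% of all genes were. Within the GC bound, where BALB/cJ has no HFHS library of day 2 and drops out of the mean, 32 were higher and none was lower (19.8% and 21.7%). Tested directly, the signed diet effect (HFHS minus RC) was higher at day 90 than at day 2 for 8 genes (13.8% of all genes) and lower for 1 (12.2%). For Derl3 and Ddit3, both among the 8, the mean diet effect at day 2 was below 0, as given above. The 8 were Derl3 (0.88 ± 0.135, adjusted p = 8.18e-08), Ddit3 (0.36), Creld2 (0.28), Edem2 (0.26), Pdia6 (0.21), Derl2 (0.18), Hsp90b1 (0.14) and Dnajc3 (0.14), and the 1 was Herpud1 (-0.19). Within the bound Ddit3 (-0.03), Derl2 (0.03), Pdia6 (0.14, adjusted p = 0.225) and Edem2 (0.17, adjusted p = 0.0607) were not called. Without the adjustment for GC content Derl2 (-0.07), Hsp90b1 (-0.08) and Dnajc3 (-0.10) were below 0, Pdia6 (0.12) and Herpud1 (-0.09) were not called, and without the 9 libraries Hsp90b1 was not (0.11, adjusted p = 0.079). In all, without the adjustment for GC content 9 were higher and 4 lower at day 90 (26.5% and 22.1%).

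Genes of the same pathways outside the 38 were drawn from lists of 44 other ER folding and ERAD genes and 35 other ATF4 target genes in the table. Of all genes, 7.52% were called higher and 7.14% lower in AKR/J at day 2. In AKR/J at day 90 the shares were 11.0% and 10.2%, and in A/J at day 2 they were 12.7% and 10.7%. In AKR/J at day 2, 35 of the 44 ER genes were higher on HFHS and none was lower (median 0.51). They included the translocon-associated subunits Ssr1 (0.75), Ssr2 (0.95) and Ssr3 (0.73) and the coat protein Sec23b of ER export vesicles (1.00). Of the 35 ATF4 target genes 11 were higher and 1 lower (median 0.21), with the tRNA synthetases Nars (0.61), Gars (0.34) and Eprs (0.26) higher and the cystine transporter Slc7a11 lower (-1.88). In AKR/J at day 90, 38 of the 44 were higher and none lower (median 0.39), among them the retrieval receptor Kdelr3 (1.41), the signal peptidase subunit Sec11c (0.97) and the ERAD lectins Erlec1 (0.68) and Os9 (0.47). Of the 35, 4 were higher and 2 lower (median -0.02). In A/J at day 2, 13 of the 44 were lower and 1 higher (median -0.21), such as Fkbp11 (-1.11), a peptidyl-prolyl isomerase, and Ssr4 (-0.71), and 15 of the 35 ATF4 target genes were lower and 3 higher (median -0.30), such as Phgdh (-1.47) and Psat1 (-0.78).

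Within groups the chaperone genes varied together from mouse to mouse. Each mouse's level was taken as its deviation from the mean of all libraries of its group, those beyond the GC bound included. In groups with libraries of both kinds, the mice within the bound can thus share an offset, whose part in the values was not tested. Over the 299 libraries within the bound, the median Pearson r over the 351 pairs of chaperone and ERAD genes was 0.55. Over the 15 pairs of ATF4 targets it was 0.23, and over all pairs between the 2 lists 0.06. Over all libraries these were 0.45, 0.19 and -0.00. Within the bound, the genes of the 38 most like Hspa5 were Pdia4 (r = 0.94), Dnajb11 (0.93), Manf (0.92) and Dnajb9 (0.90). Those most like Atf4 within the bound were Herpud1 (0.59), Sec61b (0.47) and Chac1 (0.46). These values describe the mice only, since all genes of a mouse share its library and its mix of cells.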

How the data were processed

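Islet RNA of 1 mouse per library was sequenced from libraries of the TruSeq v2 kit, per the labels' protocols, which keeps no strand, so that reads of a gene and of an overlapping antisense gene cannot be told apart. The deposited values are raw read counts per gene. The submitters' processing notes name TopHat 1.3.3, SAMtools 0.1.16, HTSeq 0.5.3p3, edgeR and genome build mm9. Libraries held 9526926 to 50751894 assigned reads. Mice are the replicates, and p-values measure the spread between mice.

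Counts were analysed with edgeR 4.0.16 in R 4.3.3: genes were filtered with filterByExpr, libraries scaled by TMM, and a spline (6 degrees of freedom) of log2 level on GC content, fitted per library, entered as an offset. The quasi-likelihood test was fitted over all libraries with 1 mean per strain, diet and day, on 16214 genes, with Benjamini-Hochberg adjustment over all of them. Diet effects are HFHS minus RC, per strain and day or as a mean over strains. Strain levels and time changes used the same fit. The procedure was tested on simulated counts. Alternatives were DESeq2 1.42.0, no GC curve, libraries within the GC bound, an acinar covariate, 1 day alone, no filter on low counts, a replicate block and leaving out mice.

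The 38 genes and the other lists were chosen with earlier results of these data known. All 38 are named, and values per mouse are given for up to 5 genes per role with the smallest adjusted p. Promoter sequences come from a RefSeq table of GRCm38.p6 and no coordinate of mm9 was used. No promoter was used for Manf, Derl1, Atf6, Sec61a1 and Hyou1.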

Additional observations from a re-analysis of the deposited data

Results flagged for a closer look

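The diet effect differed between strains in edgeR's test of the interaction for 36 of the 38 genes at day 2 (56.1% of all genes) and 3 at day 10 (7.23%). It did so for 6 at day 30 (6.78%) and 27 at day 90 (38.8%). As a mean over strains the diet effect differed between day 90 and day 2 for 9 genes. Of all genes, 13.8% were called with a higher value at day 90 and 12.2% with a lower one.

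Single mice stood apart in 7 of the 100 groups of 4 to 10 mice whose values per mouse are printed, by Dixon's criterion at the 95% level; chance flags about 1 in 20. In AKR/J at day 90 the lowest HFHS mouse had 193.8 CPM for Edem1, below the next at 272.8 CPM. Among the RC mice of that day, the same mouse was highest for Creld2 (195.6 CPM, the next 154.4 CPM), for Dnajc3 (763.4 CPM, the next 668.6 CPM) and for Dnajb11 (179.4 CPM, the next 152.3 CPM). In AKR/J RC at day 2 the lowest mouse had 158.8 CPM for Pdia4, and the next 202.4 CPM. In A/J HFHS at day 2 the highest mouse had 728.5 CPM for Sdf2l1, and the next 210.3 CPM; its library was beyond the GC bound. In BALB/cJ HFHS at day 10 the highest mouse had 44.67 CPM for Chac1, and the next 19.63 CPM.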

How the results depend on the processing

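In 197 counts of calls recomputed under other settings, 175 stayed within 1.5 times the reported count. Without the GC curve the count of called genes was 15 for the mean over strains at day 2 and 2 at day 10, 8 for the interaction at day 10 and 7 for time on RC. Within the GC bound it was 14, 10 and 9 for the means at days 10, 30 and 90, 10 and 15 for the interactions at days 10 and 30, and 30 for A/J at day 2. Without the 9 libraries that matched another strain it was 7, 7 and 6 for the means at days 2, 10 and 30 and 10 for the interaction at day 10. With 1 day alone in the fit it was 11 and 12 for the means at days 10 and 30, 13 and 22 for the interactions of those days, and 11 for A/J at day 2. With the acinar covariate it was 6 for the mean at day 30 and 1 for the interaction at day 10. The cause was not tested.

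Without the GC curve 13 of the called fold changes of named genes turned sign: Derl2 (0.006119) and Dnajc3 (0.02651) in A/J at day 2, Derl2 in DBA/2J at day 30 (-0.05223), Derl2 (-0.1372), Dnajc3 (-0.06046), Hsp90b1 (-0.1694), Hspa5 (-0.05245) and Sesn2 (0.7194) in DBA/2J at day 90, Dnajb9 (-0.09379) and Hsp90b1 (-0.06611) over time on HFHS, and Derl2 (-0.07252), Dnajc3 (-0.09721) and Hsp90b1 (-0.0841) for the diet effect at day 90 minus day 2. The libraries within the GC bound turned 3: Atf4 in A/J at day 10 (-0.2367), Ddit3 in DBA/2J at day 90 (-0.3452) and Ddit3 for the diet effect at day 90 minus day 2 (-0.02772). A further 52 and 35 calls were lost under these 2 settings. Genes called in BALB/cJ and 129S2/SvPas at day 2, and strain differences under 0.5, are not included in these counts. Of the pairs of same-numbered libraries across diets, 41 had a correlation of deviations above 0.1, and the other pairs, which were the majority, did not. These correlations were not compared with those of differently numbered mice. The count therefore cannot decide whether mice of the same number were paired. With a replicate block the interaction at day 10 kept 1 gene, AKR/J 30 and 26 genes at days 2 and 90, A/J 17 at day 2 and BALB/cJ 8 at day 10.

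Mice were left out 1 at a time from the groups of at most 5 mice, and 1 mouse from 129S2/SvPas RC at day 90. In AKR/J and A/J at day 2 these were RC mice only, and no HFHS mouse was left out. No mouse of AKR/J at day 90 or of BALB/cJ at day 10 was left out. The counts were 28 to 30 genes for AKR/J at day 2, 13 to 18 for A/J at day 2 and 14 to 19 for time on RC. For the mean at day 10 they were 2 to 4 (2 without A/J RC mouse 13), and for the interaction at day 10 they were 0 to 3 (0 without A/J RC mouse 18). DESeq2 called 30, 26, 18 and 9 genes in AKR/J at days 2 and 90, A/J at day 2 and BALB/cJ at day 10. Chac1 and Trib3 had low levels, and their standard errors in AKR/J at day 2 were 0.327 and 0.218, against 0.135 for Hspa5. The part of low counts in these standard errors was not tested.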
